A study of Mus musculus with 15 samples.

Results

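Interleukin 4 and interleukin 13 are the cytokines of type 2 immunity, and macrophages exposed to them take up a state called alternative activation. Messenger RNA of genes of this system was followed in the mouse lung after bleomycin, an antitumour drug that breaks DNA and causes pulmonary fibrosis. The set held 10 of the 33340 genes of the count table, taken by symbol from a set fixed with earlier results of these data known, and 9 are described. They are the receptor chains Il4ra, Il13ra1 and Il13ra2, the secreted proteins Retnla, Chil3, Chil1 and Ccl24, and the surface receptors Mrc1 and Cd163.

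RNA-seq of polyA RNA from whole lung covered 15 libraries, with 4 each from days 0, 7 and 14 and 3 from day 21. The mice were C57BL/6 males 10 to 12 weeks old, with no transgene named, and those of the later days had received 5 U/kg bleomycin into the trachea. Day 0 libraries were titled as controls and labelled as untreated, except that replicate 4 carried a bleomycin treatment label with its control title. By title it was counted as day 0. For days 0, 7 and 14 the titles hold more replicates than the series text states. The labels number the replicates without saying that each is a separate animal, so p-values measure the spread between libraries.

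IL-4 binds a chain encoded by Il4ra, which pairs with either the common gamma chain or the Il13ra1 chain, and the second pair also binds IL-13. Both pairs signal through Janus kinases to the transcription factor STAT6, while Il13ra2 encodes a high-affinity chain that takes up IL-13 with little STAT6 signalling. Retnla, Chil3 and Mrc1 are classic mouse genes of alternatively activated macrophages, although Chil3 is also a gene of resting alveolar macrophages and Chil1 is made by alveolar epithelium as well as by macrophages.

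STAT6 is known to favour the letters TTCNNNNGAA, where N is any base, and STAT factors in general bind TTCNNNGAA. Both were searched on both strands in RefSeq promoter windows of GRCm38.p6, from 250 bases before to 50 bases after each gene's start. Both motifs read alike on either strand. Windows were matched for 8 of the 9 genes, and Ccl24 was not among them. Retnla held the longer motif, 145 bases before its RefSeq start, which lies inside the annotated gene, and Chil3 the shorter, 172 bases before its start, and the other 6 windows held neither. The longer motif was present in 6.95% of 32851 windows and the shorter in 8.3%. The part of each window that lies outside the annotated gene is shown for these 2 genes, since they carry the matches, with the match in capitals.
Retnla, chr16:48842359-48842550, plus strand: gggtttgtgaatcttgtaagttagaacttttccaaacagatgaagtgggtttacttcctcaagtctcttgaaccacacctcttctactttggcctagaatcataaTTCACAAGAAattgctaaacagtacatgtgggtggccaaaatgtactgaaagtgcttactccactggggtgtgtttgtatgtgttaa
Chil3, chr3:106167565-106167814, minus strand: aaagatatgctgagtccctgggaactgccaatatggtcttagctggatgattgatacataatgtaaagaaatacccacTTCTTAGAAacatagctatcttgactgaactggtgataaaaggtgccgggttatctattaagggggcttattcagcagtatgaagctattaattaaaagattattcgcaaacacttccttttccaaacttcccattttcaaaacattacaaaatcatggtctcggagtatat

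Total counts ran from 15652008 to 18020661 per library. The lung label was checked against marker genes: epithelial markers summed to between 43830 and 58551 CPM at day 0 and endothelial markers to between 1654 and 2191. CPM is the read count of a gene over the TMM-scaled size of its library. Mitochondrial genes took 2.03% to 4.22% of counts and differed within days, under 2.5% in 2 of the 4 day 0 libraries, all 4 of day 7 and 1 of day 14. Each change was therefore also fitted within libraries of like mitochondrial share where at least 2 per group existed, which was day 7 against day 0 under 2.5% and day 14 against day 0 over 3.5%.

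A call needed a fold change over 1.5 and an edgeR quasi-likelihood p under 0.05 after Benjamini-Hochberg adjustment over all tested genes. Of the 9 genes, 8 passed the filter on low counts and Il13ra2 did not. At day 7, 3 of the 8 were called higher than day 0, against 8.78% of 17457 tested genes, and 0 lower, against 7.36%. At day 14 the numbers were 4 higher and 0 lower, where 12% of tested genes were higher and 11.2% lower. At day 21, 5 were higher and 1 lower, where 12.4% and 10.1% of tested genes were. The median log2 change of the 8 was 0.76, 1.11 and 1.21 at the 3 days, against 0.01, 0.02 and 0.02 over all tested genes. The 3 comparisons share the day 0 libraries.

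**Figure D1:**
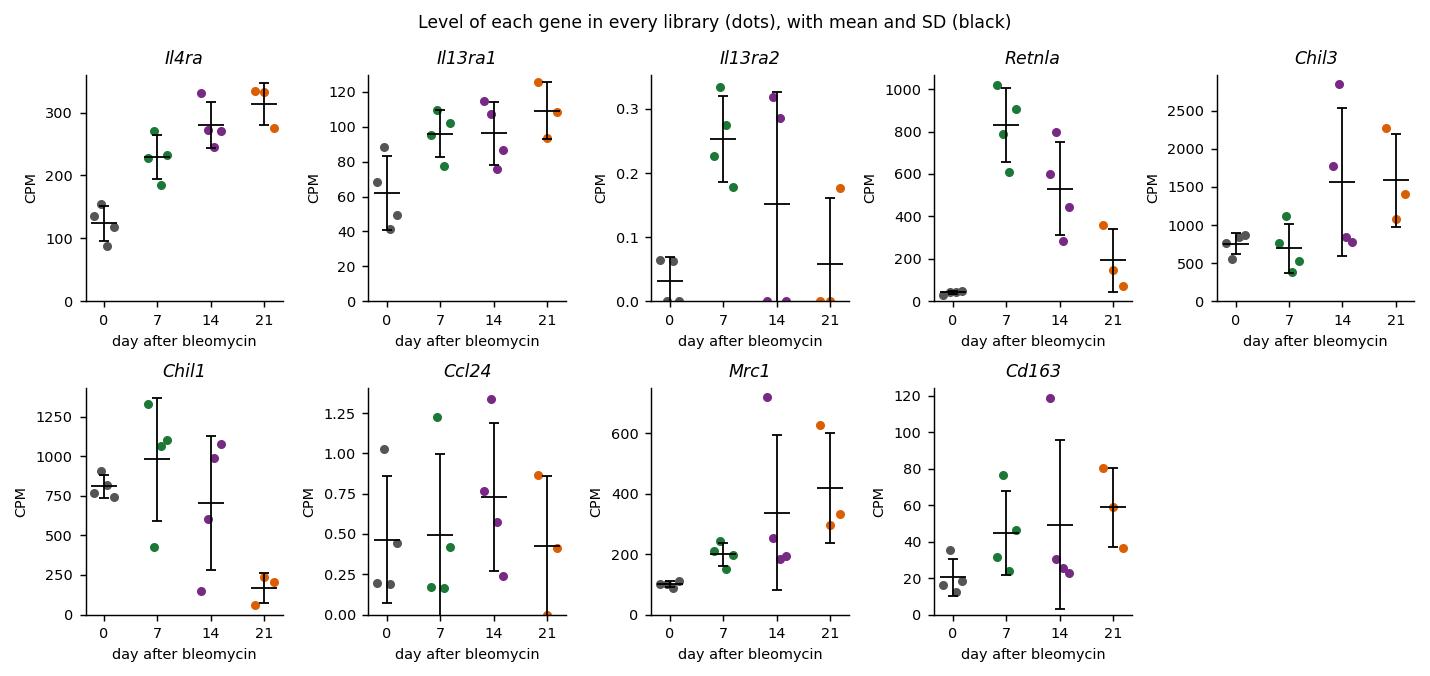
CPM of each of the 9 genes (vertical axes from 0, one scale per gene) in every library by day (horizontal axis), with dots for libraries and black bars for mean and SD of 4, 4, 4 and 3 libraries. Retnla stands highest at day 7, between 612 and 1019 CPM, while Il4ra, Mrc1 and Chil3 have their highest means at day 21 and Chil1 its lowest.

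The receptor chains that form the IL-4 and IL-13 receptor were both called higher at each later day. Il4ra (ENSMUSG00000030748, chr7:125552120-125579474, plus strand of GRCm38) encodes the chain common to both receptors. Its level at day 0 was 135, 154, 88.0 and 117 CPM in the 4 libraries. At day 7 it was 227, 270.2, 185 and 233 CPM, and at day 14 it was 331, 272, 245 and 271. At day 21 the 3 libraries held 334, 333 and 276 CPM. All 11 libraries of the later days lay above all 4 of day 0.

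The log2 change of Il4ra against day 0 was 0.89 ± 0.16 (SE, edgeR adjusted p = 0.00155) at day 7, 1.18 (adjusted p = 8.3e-05) at day 14 and 1.34 (adjusted p = 5.84e-05) at day 21, or 1.85, 2.26 and 2.54 fold. Its mean stood in the order day 0, 7, 14, 21, but neighbouring later days did not pass the test. The log2 difference of day 14 from day 7 was 0.29 (95% interval -0.05 to 0.63) and of day 21 from day 14 was 0.17 (-0.20 to 0.54). Day 21 also missed the threshold against day 7, at 0.46 (edgeR adjusted p = 0.0894), and passed with mitochondrial share as a covariate, at 0.72 (adjusted p = 0.0334). Among libraries of like mitochondrial share the change was 0.64 (adjusted p = 0.0197) at day 7 and 1.34 (adjusted p = 0.00214) at day 14. A predicted gene, Gm44876, overlaps Il4ra on the other strand, and the strand setting of the counting was not given, so reads of the pair cannot be told apart.

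Il13ra1 (ENSMUSG00000017057, chrX:36112110-36171259, plus strand) encodes the chain that completes the receptor shared by both cytokines. Its levels were 68.6, 88.5, 41.4 and 49.3 CPM at day 0, and 95.3, 109, 77.7 and 102 at day 7. They were 115, 108, 76.0 and 86.9 CPM at day 14 and 126, 93.3 and 109 at day 21. The spread within day 0 was wide, and 3 of 4, 2 of 4 and 3 of 3 libraries of days 7, 14 and 21 lay above its highest value.

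The log2 change of Il13ra1 was 0.63 ± 0.21 (SE, edgeR adjusted p = 0.0347) at day 7, 0.64 (adjusted p = 0.0262) at day 14 and 0.82 (adjusted p = 0.0109) at day 21. The day 7 call was lost within libraries of like mitochondrial share, at 0.27 (adjusted p = 0.246), and with that share as a covariate, at 0.36 (adjusted p = 0.279). It was also lost in 6 of 8 fits that left out 1 library, with values from 0.46 without day 0 replicate 3 to 0.83 without day 0 replicate 2. The day 14 call was lost in 4 of 8 such fits, which ran from 0.47 to 0.84, and in a fit of the 2 groups alone (adjusted p = 0.0613), and the day 21 call in 1 of 7, with values from 0.64 to 1.01. Per kilobase of exon, the ratio of Il4ra to Il13ra1 was 1.08 to 1.47 in the day 0 libraries, 1.41 to 1.53 at day 7, 1.56 to 2.00 at day 14 and 1.57 to 2.21 at day 21.

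Il13ra2 (ENSMUSG00000031289, chrX:147383476-147429192, minus strand) was near the limit of detection throughout. Day 0 libraries held 0 or 1 read each, 2 in all, and day 7 libraries 3 to 6 each, 18 in all. Day 14 libraries held 0 to 5 reads, 10 in all, and of the 3 day 21 libraries only 1 held any, with 3 reads. All 4 day 7 libraries therefore lay above every day 0 library. The ratio of pooled counts per sequenced depth was 8.37 for day 7 over day 0, with an exact 95% interval of 2.00 to 74.4 that covers counting error only. In an edgeR fit with no filter the adjusted p was 0.136 (unadjusted p = 0.0241) at day 7, 0.321 at day 14 and 0.826 at day 21, so no day passed the threshold.

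Retnla had its highest level at day 7 and was called lower by day 21. Retnla (ENSMUSG00000061100, chr16:48842551-48844461, plus strand), whose upstream sequence with the STAT6 motif is printed above, encodes a small secreted protein also called FIZZ1 or RELM-alpha. Day 0 libraries held 29.8, 45.2, 44.4 and 48.5 CPM, and day 7 libraries 1019, 787, 612 and 905. Day 14 libraries held 599.7, 798, 284 and 444 CPM and day 21 libraries 359, 149 and 73.3. All later libraries lay above day 0, and all 3 of day 21 lay below all 4 of day 7.

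The log2 change of Retnla against day 0 was 4.31 ± 0.44 (SE, edgeR adjusted p = 2.49e-05) at day 7, 3.66 (adjusted p = 1.68e-05) at day 14 and 2.21 (adjusted p = 0.00112) at day 21, or 19.8, 12.7 and 4.61 fold. Leaving out day 21 replicate 1, the highest of that day, gave 1.37 at day 21. At day 21 it was 4.29 fold lower than at day 7 (edgeR adjusted p = 0.00871). The step from day 14 to day 21, -1.46 (95% interval -2.36 to -0.55), had an adjusted p of 0.302 in edgeR and was called by DESeq2 at -1.47 (adjusted p = 0.0418). Per kilobase of exon, Retnla took place 565 of the tested genes at day 0 and places 15, 31 and 81 at the 3 later days.

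**Figure D2:**
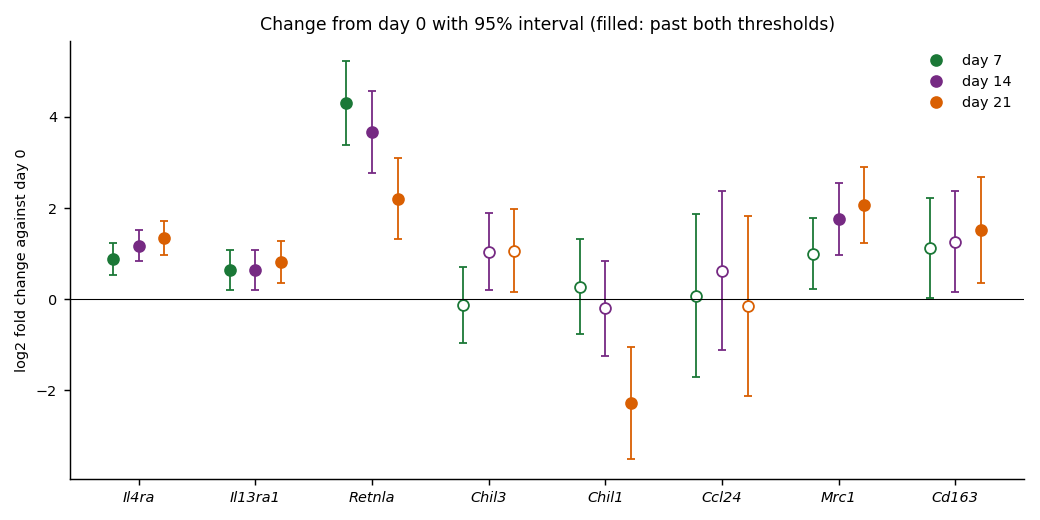
Log2 fold change against day 0 (vertical axis) with its 95% interval for the 8 tested genes (horizontal axis), by day and colour, from the edgeR fit of all 15 libraries, with filled dots past both thresholds. Retnla shows the largest change at day 7, 4.31, and Chil1 at day 21 is the only filled dot below 0, at -2.28.

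Chil3 and Chil1, which encode chitinase-like proteins without chitinase activity, were not called at days 7 and 14, and Chil1 was called lower at day 21. Chil3 (ENSMUSG00000040809, chr3:106147554-106167564, minus strand), also called Ym1, was already at place 55 of the tested genes per kilobase at day 0. Its levels were 761, 558, 839.6 and 869 CPM at day 0 and 759, 1113, 379 and 525 at day 7. At day 14 they were 1777, 2849.8, 843 and 776 CPM, and at day 21 they were 2269, 1079.9 and 1408. The 3 day 21 libraries and 2 of the 4 day 14 libraries lay above day 0, and the other 2 of day 14 lay within it.

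Chil3 was not called at any day. Its log2 change was -0.12 (95% interval -0.97 to 0.72, edgeR adjusted p = 0.847) at day 7, 1.05 (0.19 to 1.90, adjusted p = 0.0561) at day 14 and 1.07 (0.16 to 1.97, adjusted p = 0.0702) at day 21. With no filter on low counts it was called at both later days, with adjusted p of 0.0234 and 0.0363, and in a fit of the 2 groups alone at day 21 (adjusted p = 0.0171). Of 8 fits that left out 1 library, 2 gained the day 14 call, and values ran from 0.56 without day 14 replicate 2 to 1.27 without day 14 replicate 4. At day 21, 0 of 7 such fits gained the call, and the value was 0.68 (adjusted p = 0.317) without day 21 replicate 1. Chil4, a near-identical neighbour in sequence, held 0 to 8 reads per library. Multi-mapped reads were dropped, so reads that map to both Chil3 and Chil4 would be missing from both counts.

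Chil1 (ENSMUSG00000064246, chr1:134182176-134190181, plus strand), also called BRP-39, was the only one of the 8 tested genes called lower than day 0. Its levels were 768, 905, 821 and 745 CPM at day 0, 1328, 428, 1065 and 1100.3 at day 7, and 151, 601, 988 and 1080.5 at day 14. The day 21 libraries held 59.2, 237 and 205 CPM, all below every library of days 0 and 7. Day 14 replicate 1 also lay far below day 0.

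Against day 0 the log2 change of Chil1 was 0.28 (95% interval -0.77 to 1.32) at day 7, -0.20 (-1.25 to 0.85) at day 14 and -2.28 ± 0.58 (SE, edgeR adjusted p = 0.00765) at day 21, 4.85 fold lower. From day 7 to day 21 it fell by 2.55 (adjusted p = 0.0132). From day 14 to day 21 the change of -2.08 was not called (adjusted p = 0.292), but without day 14 replicate 1 it was -2.42 (adjusted p = 0.028). The ratio of Chil3 to Chil1 per kilobase ran from 1.06 to 2.00 at day 0 and from 7.83 to 65.9 at day 21.

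Beside Chil1, the sum of 4 epithelial markers (Sftpc, Ager, Scgb1a1, Foxj1) ran from 43830 to 58551 CPM at day 0, 19379 to 28583 at day 7, 10979 to 22186 at day 14 and 7394 to 10760 at day 21. Of these markers, 0 were called higher at any day and 1, 3 and 2 of 4 lower at days 7, 14 and 21, where 7.36%, 11.2% and 10.1% of all tested genes were. At day 7 Scgb1a1, the secretory gene of airway club cells, was the marker called lower, at -1.59 (edgeR adjusted p = 0.00356), and Sftpc, the surfactant gene of alveolar type 2 cells, was at -0.48 (adjusted p = 0.341), Ager at 0.10 and Foxj1 at 0.37. Sftpc was called lower at day 14, at -0.99 (adjusted p = 0.0429), and at day 21, at -2.39 (adjusted p = 0.000583). Over the 15 libraries, on the log2 CPM scale, Chil1 had a Pearson correlation of 0.93 with Sftpc and of 0.48 with Scgb1a1. The libraries share days and tissue make-up, and the part of the epithelium in the Chil1 result was not tested. In bulk lung, fewer cells of a type and less RNA per cell cannot be told apart, which holds for every gene described here.

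Ccl24 (ENSMUSG00000004814, chr5:135569937-135573049, minus strand), an eosinophil-attracting chemokine also called eotaxin-2, stayed low. It held 3 to 17 reads in day 0 libraries, 3 to 22 at day 7, 4 to 21 at day 14 and 0 to 14 at day 21, with ranges that overlap at all days. Its log2 change was 0.08 (95% interval -1.71 to 1.87) at day 7, 0.63 (-1.12 to 2.38) at day 14 and -0.15 (-2.12 to 1.82) at day 21, so changes within those limits were not detectable at this depth. Eosinophil markers were low as well. Epx, which encodes eosinophil peroxidase, held 0 to 6 reads per library, and the sum of 4 eosinophil markers ran from 0.423 to 1.67 CPM at day 0, 0.951 to 2.14 at day 7, 0.604 to 10.5 at day 14 and 0.57 to 8.53 at day 21. Of the 4, 2 were tested and Ear6, an eosinophil-associated ribonuclease, was called higher at day 14 at 3.01 (edgeR adjusted p = 0.0472). That call was lost without day 0 replicate 1, 2 or 3, at 2.58 to 2.77, and without day 14 replicate 2, at 1.46 (adjusted p = 0.326). Without day 0 replicate 4, the library with a bleomycin label, the Ear6 change was 4.84 (edgeR adjusted p = 0.0184).

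Of the surface receptors of alternatively activated and tissue macrophages, Mrc1 was called higher at days 14 and 21 and Cd163 at day 21. Mrc1 (ENSMUSG00000026712, chr2:14229392-14332057, plus strand) encodes the mannose receptor CD206, which takes up glycoproteins and collagen. Its levels were 101, 101, 87.2 and 112 CPM at day 0 and 209, 242, 150.4 and 197 at day 7. At day 14 they were 718, 255, 183 and 193 CPM and at day 21 they were 628, 298 and 334. All later libraries lay above day 0, and day 14 replicate 1 stood far above its group.

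The log2 change of Mrc1 was 0.996 ± 0.37 (SE, edgeR adjusted p = 0.0579) at day 7, 1.75 (adjusted p = 0.00226) at day 14 and 2.07 (adjusted p = 0.00118) at day 21. Day 7 missed the threshold although 4 of 4 libraries lay above day 0, and it passed in a fit of the 2 groups alone at 0.97 (adjusted p = 0.000703), in DESeq2 (adjusted p = 0.0299) and within libraries of like mitochondrial share (adjusted p = 0.00682). With that share as a covariate it was 0.58 (adjusted p = 0.423). Without day 14 replicate 1 the day 14 change was 1.05 and was still called. Day 21 was 1.07 above day 7 (95% interval 0.25 to 1.90, edgeR adjusted p = 0.0783), a difference that passed in DESeq2 (adjusted p = 0.0376), with no filter (adjusted p = 0.0364) and in a fit of the 2 groups alone (adjusted p = 0.0322). It passed in 0 of 7 fits that left out 1 library, and was 0.64 (adjusted p = 0.369) without day 21 replicate 1.

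Cd163 (ENSMUSG00000008845, chr6:124304656-124330527, plus strand), the scavenger receptor for haemoglobin bound to haptoglobin, was called at day 21. Its levels were 15.9, 35.2, 12.2 and 18.5 CPM at day 0, 31.7, 76.3, 23.9 and 46.2 at day 7, 118, 30.3, 25.3 and 22.5 at day 14, and 80.2, 59.1 and 36.6 at day 21. Days 7 and 14 overlapped day 0, where replicate 2 was highest, and day 21 did not. The log2 change was 1.12 (edgeR adjusted p = 0.126) at day 7, 1.26 (adjusted p = 0.074) at day 14 and 1.52 ± 0.55 (SE, adjusted p = 0.0488) at day 21. The day 21 call was lost in 6 of 7 fits that left out 1 library, with values from 1.19 without day 21 replicate 1 to 1.88 without day 0 replicate 2, in DESeq2 (adjusted p = 0.0639), with RLE factors (adjusted p = 0.0542) and with a filter at a mean of 1 CPM (adjusted p = 0.0517). A call was gained at day 7 in a fit of the 2 groups alone (adjusted p = 0.0459), and at day 14 with no filter (adjusted p = 0.0292) and in 3 of 8 fits that left out 1 library. Day 14 values in such fits ran from 0.33 without day 14 replicate 1 to 1.63 without day 0 replicate 2. At day 7 the Cd163 change was 0.41 (edgeR adjusted p = 0.67) with mitochondrial share as a covariate. Within libraries of like share it was 0.78 (adjusted p = 0.262), and without day 7 replicate 2 it was 0.73.

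**Figure D3:**
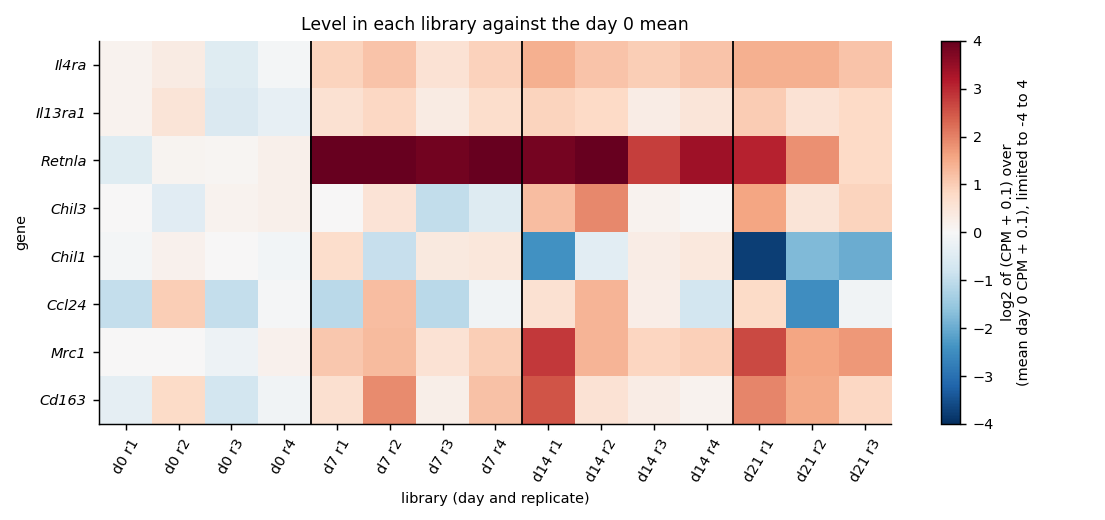
Log2 ratio of each library (columns, by day and replicate) to the day 0 mean, both with 0.1 CPM added, for the 8 tested genes (rows), with colour limited to the range -4 to 4. Il4ra, Retnla and Mrc1 are above day 0 in all 11 later libraries, and day 14 replicate 1 and day 21 replicate 1 combine high Chil3 and Mrc1 with low Chil1.

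The later days were also compared with each other. Between days 7 and 14, 0 of the 8 were called in edgeR, where 2.77% of tested genes were higher at day 14 and 3.23% lower. At an unadjusted p under 0.05, 1 of the 8 and 4372 of the 17457 tested genes differed, and DESeq2 and limma voom called 0. Between days 14 and 21 edgeR called 0% of tested genes and 0 of the 8, with 1714 genes and 2 of the 8 at an unadjusted p under 0.05. There DESeq2 called 1 of the 8 and limma voom 0. Day 21 differed from day 7 in Retnla and Chil1, both lower, where 4.34% of tested genes were called lower and 5.2% higher. There 5 of the 8 and 5238 of all tested genes had an unadjusted p under 0.05, and DESeq2 also called Mrc1 higher.

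The summed levels of general macrophage and of fibroblast markers also stood higher after day 0. Those of alveolar macrophages overlapped day 0 at each later day, although single markers on that list went in both directions. The sum of 6 markers of all macrophages (Adgre1, Cd68, Csf1r, Mertk, Fcgr1, Lgals3) was 422 to 494 CPM at day 0, 691 to 868 at day 7, 766 to 1335 at day 14 and 743 to 1238 at day 21. Of the 6, 4, 5 and 4 were called higher at the 3 days and 0 lower, with 8.78%, 12% and 12.4% of all tested genes higher. The sum of 6 interstitial macrophage markers (Lyve1, Folr2, C1qa, C1qb, C1qc, Stab1) was 678 to 987 CPM at day 0, 942 to 1211 at day 7, 1021 to 2281 at day 14 and 1399 to 1933 at day 21. Calls among these 6 numbered 3, 4 and 4 higher and 0 lower at days 7, 14 and 21, beside the same shares of all tested genes. Their median log2 changes were 1.37, 1.80 and 2.20. Lyve1, the main part of that sum at day 0 with a mean of 628 CPM, stood at 404 at day 7. C1qa, C1qb and C1qc stood at means of 197, 170 and 139 CPM at day 7, against 41.9, 30.2 and 28.0 at day 0. The sum of 8 alveolar macrophage markers (Siglecf, Marco, Krt79, Plet1, Itgax, Ear1, Ear2, Fabp1) was 267 to 313 CPM at day 0, 204 to 334 at day 7, 298 to 705 at day 14 and 182 to 401 at day 21. Of these 1, 2 and 1 were called higher and 4, 3 and 4 lower, where 7.36%, 11.2% and 10.1% of all tested genes were lower. From day 0 to day 21 the mean of Krt79 went from 34.9 to 0.43 CPM and that of Fabp1 from 7.92 to 0.12. Ear1 went from 17.1 to 1.81 and Siglecf from 16.2 to 5.57, while Itgax went from 68.7 to 149. Marco reached 434 CPM in 1 day 14 library. The sum of 5 fibroblast markers (Col1a1, Col3a1, Pdgfra, Pdgfrb, Dcn) was 1063 to 1586 CPM at day 0, 3635 to 4620 at day 7, 2670.2 to 8980.4 at day 14 and 3586 to 6571 at day 21, with 2, 2 and 3 of the 5 called higher and 0 lower. Over the 15 libraries Il4ra had a correlation of 0.86 with Adgre1 and 0.896 with Col1a1, and Mrc1 of 0.86 and 0.92, while Chil1 had -0.49 and -0.57. With C1qa the values were 0.92 for Il4ra, 0.89 for Mrc1 and -0.50 for Chil1. None of the 9 genes is on these lists.

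Each gene was also divided by the summed macrophage markers of its library. Il4ra was 0.208 to 0.341 of the sum at day 0, 0.262 to 0.362 at day 7, 0.248 to 0.32 at day 14 and 0.244 to 0.448 at day 21, ranges that overlap. Retnla was 0.0603 to 0.115 of it at day 0, 0.885 to 1.27 at day 7, 0.371 to 0.81 at day 14 and 0.065 to 0.29 at day 21, so the libraries of days 7 and 14 stood apart from day 0 and those of day 21 did not. Mrc1 was 0.204 to 0.265 at day 0, 0.218 to 0.324 at day 7, 0.228 to 0.538 at day 14 and 0.296 to 0.507 at day 21, apart from day 0 at day 21 alone. Il13ra1 was 0.0979 to 0.196 at day 0, 0.11 to 0.147 at day 7, 0.086 to 0.109 at day 14 and 0.0963 to 0.126 at day 21. Il13ra1, Cd163, Chil3 and Ccl24 overlapped day 0 at all later days. Chil1 was 1.55 to 2 at day 0, 0.574 to 1.55 at day 7, 0.113 to 1.29 at day 14 and 0.0478 to 0.319 at day 21. Its libraries of days 14 and 21 thus lay below day 0. Il13ra2, near the limit of detection, stood above day 0 at day 7 and overlapped it at days 14 and 21. These ratios were chosen after the values were seen, the macrophage part in these results was not tested beyond them, and the fibroblast part was not tested.

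**Figure D4:**
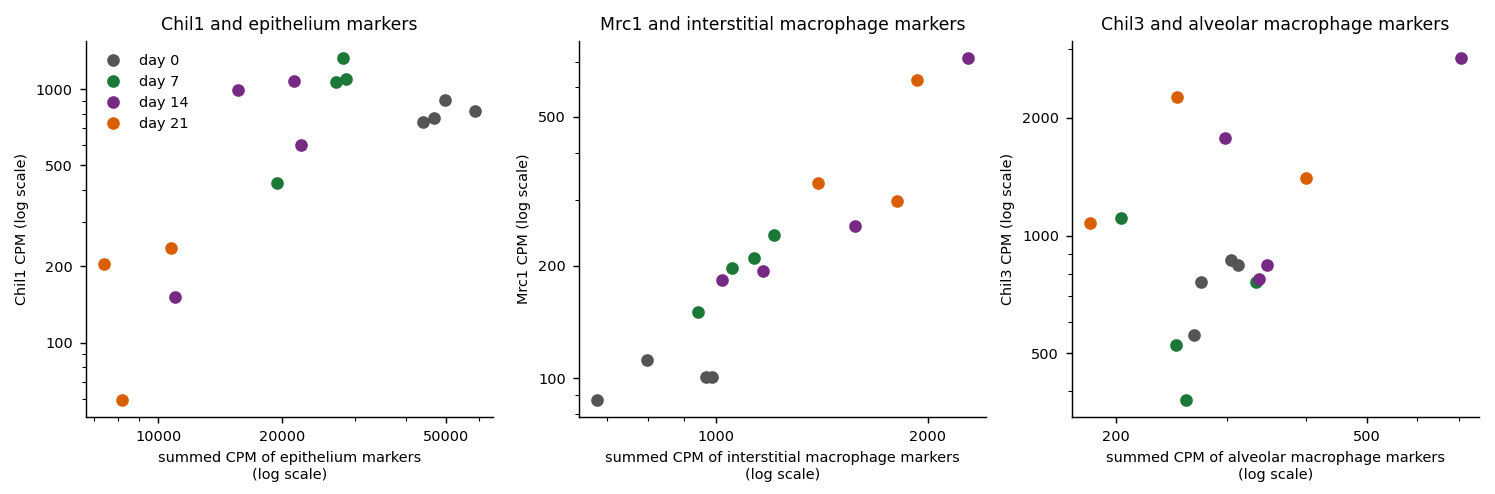
Each dot is 1 library, coloured by day, with the summed CPM of a marker list on the horizontal axis and the CPM of Chil1, Mrc1 or Chil3 on the vertical axis (log scales). Day 21 libraries have the lowest epithelial sums, 7394 to 10760 CPM, with Chil1 of 59.2 to 237 CPM, and Chil3 is spread from 379 to 2850 CPM over alveolar macrophage sums of 182 to 705.

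Over the 15 libraries, on the log2 CPM scale, the genes most like Il4ra were Col4a1 (r = 0.97), Pdzrn3 and Fndc3b, and those most like Mrc1 were Fbln2 (r = 0.98), Picalm and Pdgfc. The genes most like Retnla were Ckmt1 (r = 0.94), Ptpn2 and Traf4. Chil1 was most like Hc (r = 0.96), Itih4 and Pdzk1ip1, Chil3 most like Tprkb (r = 0.95), Eprn and Card19, Il13ra1 most like Pemt (r = 0.95) and Ibtk, and Cd163 most like Psme4 (r = 0.94), Lpar1 and Arfgap3. For the low-count Ccl24 the highest values were for Tmem138 (r = 0.81), Fancf and Wfdc21. Among pairs of the 8 genes, Il4ra and Il13ra1 were most alike at 0.90 and Il4ra and Mrc1 followed at 0.87. All such values include the differences between days that the libraries share.

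The cytokines themselves were scarce. Il4 held 27 to 51 reads per library and its log2 change was -0.09 (95% interval -0.65 to 0.46) at day 7, -0.07 at day 14 and -0.28 at day 21, none called. Il13 had 0 reads in all 4 day 0 libraries and 5, 6 and 4 reads in all at days 7, 14 and 21. It did not pass the filter, and in an edgeR fit with no filter it was not called (adjusted p = 0.188, 0.119 and 0.172, unadjusted p = 0.0394, 0.025 and 0.0389). Il5, the eosinophil growth cytokine, had 11 reads over the day 0 libraries, with some in each, and 0, 2 and 3 at the later days. It did not pass the filter either, and with no filter it was called lower at day 7 (edgeR adjusted p = 0.0366) and not at days 14 and 21 (adjusted p = 0.239 and 0.53). Stat6 was lower by less than 1.5 fold, at -0.27 (edgeR adjusted p = 0.0416), -0.45 (adjusted p = 0.00166) and -0.42 (adjusted p = 0.00511), with all later libraries below day 0.

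In all, 46 of 57 further genes on 7 lists of type 2 signalling and alternative activation were tested. Higher calls numbered 9, 8 and 10 at days 7, 14 and 21, beside 8.78%, 12% and 12.4% of all tested genes, and lower calls 1, 7 and 3, beside 7.36%, 11.2% and 10.1%. Their median log2 change was 0.22, 0.06 and 0.06. The 12 other markers of alternative activation had 6, 4 and 6 called higher and 0 lower, with medians of 1.16, 0.99 and 0.86. Of 9 receptor chains, kinases and STAT6 pathway genes, 1, 2 and 1 were higher and 0, 1 and 0 lower, and of 7 regulators of alternative activation 0, 0 and 1 were higher and 1, 1 and 0 lower. The 7 tested alarmin and type 2 lymphocyte genes had 1 higher call at each day and 0, 1 and 2 lower. Of the 5 tested relatives of the chosen genes, 1 was called higher at day 7 only and 0, 2 and 1 lower, and of the 5 tested IL-13 responsive epithelial and stromal genes 0, 1 and 1 were higher and 0, 2 and 0 lower.

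Msr1, a scavenger receptor for modified lipoproteins, went from 5.49 ± 1.47 CPM (SD, n = 4) at day 0 to 82.6 ± 23.5 (n = 3) at day 21, with log2 changes of 2.76, 3.71 and 3.91 (edgeR adjusted p of 0.000148, 5.92e-06 and 8.02e-06). Ccl17, a chemokine that draws type 2 helper T cells, had its highest level at day 7, 22.6 ± 1.73 CPM (n = 4) against 3.81 ± 1.13 at day 0, a log2 change of 2.57 (adjusted p = 8.09e-07), and 1.43 at day 14. Ccl22, which shares its receptor, rose by 1.82 (adjusted p = 0.000843) at day 7. Cd200r1, an inhibitory receptor, rose by 1.42 (adjusted p = 0.000174), 2.45 and 2.35 at days 7, 14 and 21, with every library of those days above day 0. Clec7a, the beta-glucan receptor dectin-1, rose at days 14 and 21 by 1.33 (edgeR adjusted p = 0.00526) and 1.16 (adjusted p = 0.0173), the second falling to 0.38 (adjusted p = 0.293) without day 21 replicate 3. Clec10a, a lectin, changed by 1.58 at day 7 and 1.37 at day 21, and lost its call in 4 of 8 and 6 of 7 fits without 1 library (lowest 1.24 without day 7 replicate 2 and 0.81 without day 21 replicate 1).

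**Figure D5:**
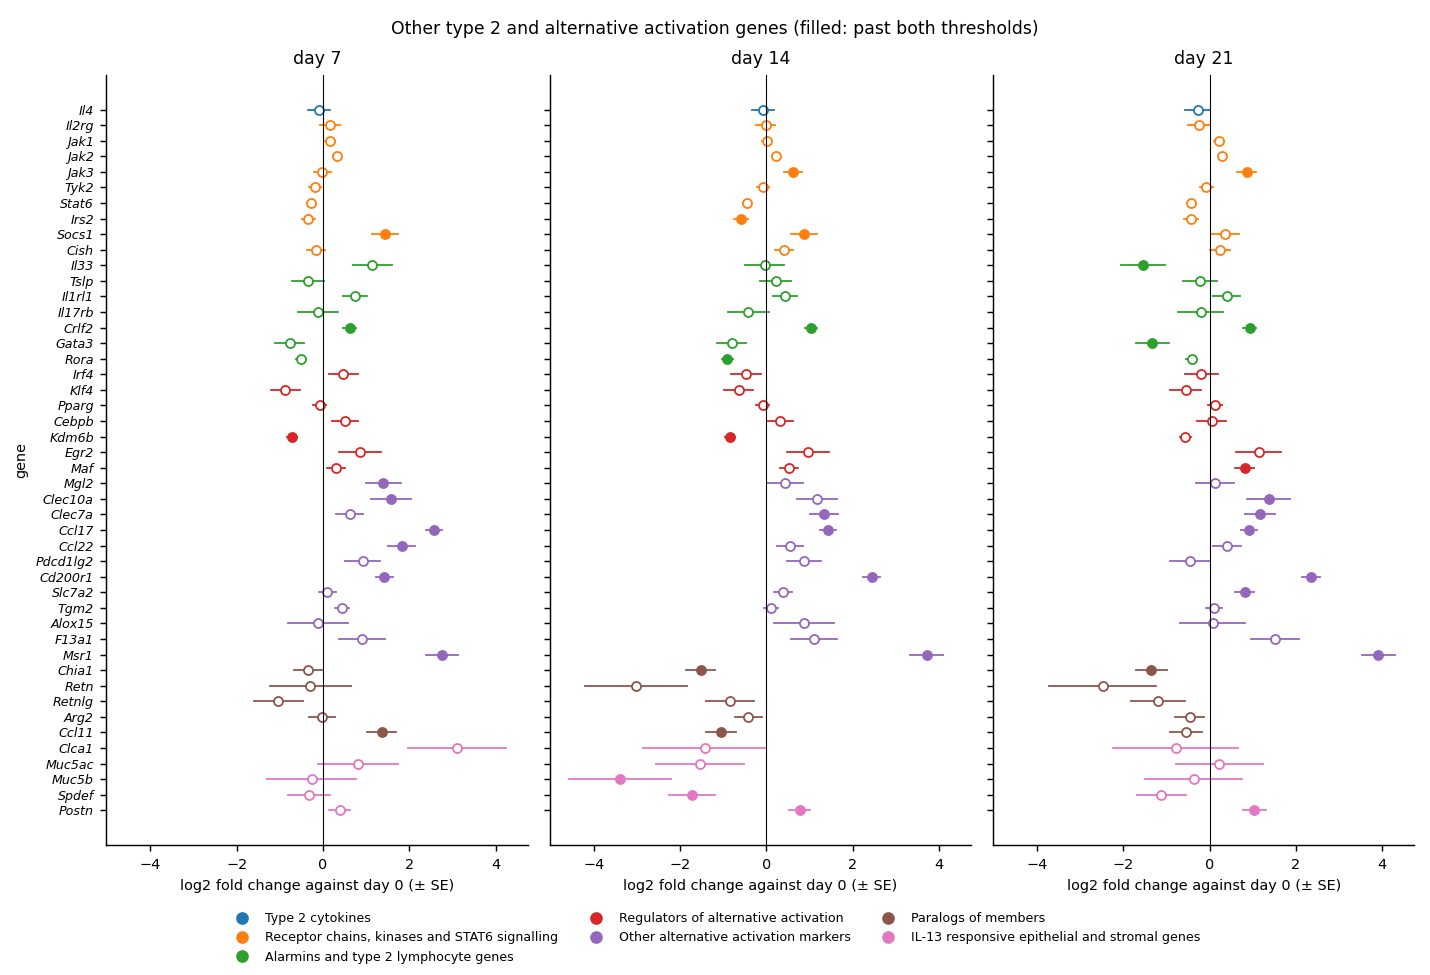
Log2 fold change against day 0 with its SE (horizontal axes, one panel per day) for the 46 tested genes of the 7 lists (vertical axis, coloured by list), with filled dots past both thresholds. Msr1 has the largest rise in each panel among the filled dots, 2.76, 3.71 and 3.91, and the filled dots left of 0 number 1, 7 and 3.

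The genes that fell on these lists were few at day 7, where Kdm6b, a histone demethylase, changed by -0.72 (edgeR adjusted p = 0.000902). At day 14 the largest falls among called genes were of Muc5b, an airway mucin, at -3.39 (adjusted p = 0.0375), Spdef, a goblet cell transcription factor, at -1.72 (adjusted p = 0.022), the chitinase Chia1 at -1.52 (adjusted p = 0.00237) and the eosinophil chemokine Ccl11 at -1.05 (adjusted p = 0.0331), each below day 0 in 4 of 4 libraries. At day 7 Ccl11 had been called higher than day 0, by 1.36 (edgeR adjusted p = 0.00879, 4 of 4 libraries above day 0), a call kept in all 8 fits that left out 1 library and lost with mitochondrial share as a covariate, at 1.13 (adjusted p = 0.0994). The day 14 calls of Muc5b and Ccl11 were each lost in 6 of 8 fits that left out 1 library and that of Spdef in 3 of 8, at values from -3.98 to -3.06, from -1.27 to -0.89 and from -2.01 to -1.52. Counts were low, with 6 to 14 reads of Spdef per library at day 14 against 17 to 42 at day 0. Ccl11 held 13 to 27 reads per library at day 14 against 36 to 44 at day 0. At day 21 the alarmin Il33 changed by -1.54 (adjusted p = 0.0324), Chia1 by -1.35 and Gata3, the factor of type 2 lymphocytes, by -1.33 (adjusted p = 0.0144). The Il33 call was lost in 4 of 7 such fits, from -1.91 to -1.19, and that of Gata3 in 1 of 7, at -1.12 without day 21 replicate 1. Il33 had stood at 284 ± 43.1 CPM (SD, n = 4) at day 7 against 129 ± 26.0 at day 0, a change of 1.14 that was not called (adjusted p = 0.0766).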

How the data were processed

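Whole-lung polyA RNA was sequenced in 15 libraries. The authors trimmed reads with TrimGalore, aligned them to mm10 with HISAT2 2.1.0, dropped multi-mapped reads and deposited raw HTSeq counts per Ensembl gene. The annotation release and strand setting were not given in the sources used here. Symbols, coordinates and exon lengths came from GENCODE M21, which matched 33267 of 33340 identifiers.

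Counts were tested in edgeR 4.0.16 (R 4.3.3) with filterByExpr, TMM factors and glmQLFTest, with day group as the sole term, 1 fit over the 15 libraries and a common biological coefficient of variation of 22.8%. The step was tested on simulated data. Named genes were the members, Il4, Il5, Il13, Stat6, Il33, up to 4 called genes per direction and contrast from the lists, and up to 3 genes most correlated with each. The members and all lists were chosen with earlier results of these data known. A few genes, 1 member among them, are not reported here. Alternatives were DESeq2 1.42.0, limma 3.58.1 voom, other scalings, filters, samples and covariates.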

Additional observations from a re-analysis of the deposited data

Results flagged for a closer look

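In 2 of 27 sets of 4 libraries (9 genes at 3 days), 1 library stood apart from the other 3 by more than Dixon's 95% critical value, where chance gives about 5% of such sets. Both were day 14 replicate 1, with Mrc1 at 718 CPM against 183 to 255 in the other 3, and Cd163 at 118 CPM against 22.5 to 30.3. In the same library Chil1 was at 151 CPM. Its fibroblast markers summed to 8980 CPM against 2670 to 3643 in the other 3, and its interstitial macrophage markers to 2281 against 1021 to 1575. Epithelial markers summed to 10979 CPM against 15597 to 22186, while its neutrophil sum lay within the range of the other 3. The part of cell make-up was not tested.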

How the results depend on the processing

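Il4ra, Retnla, Mrc1 at days 14 and 21 and Chil1 at day 21 were called against day 0 under each alternative run, leaving out each library in turn included. The number of list genes called at day 7 was 6 in place of 10 when mitochondrial share was a covariate, and at day 14 it ran from 9 to 13 in place of 15 when 1 library was left out. In a fit of the 2 groups alone, where Ccl24 did not pass the filter, 5 of 7 genes were called at day 7 in place of 3 of 8, all higher, beside 9.23% of 16207 tested genes. With no filter on low counts, 1 of the 8 genes was called between days 7 and 14, 1 between days 14 and 21 and 4 between days 7 and 21, in place of 0, 0 and 2. DESeq2 called 1 between days 14 and 21, and leaving out 1 library gave 0 to 1 for each of the first 2 comparisons. Uncalled values changed sign as follows: Ccl24 at day 7 was -0.0807 under limma voom, -0.0726 with the mitochondrial covariate, -0.33 within libraries of like mitochondrial share and -0.89 to 0.78 without 1 library, and at day 21 -1.20 to 0.53 without 1 library. Chil3 at day 7 was 0.0605 within libraries of like share and -0.45 to 0.0783 without 1 library, and Chil1 at day 14 was 0.17 and -0.48 to 0.12. The causes were not tested.

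Whether replicate numbers pair the libraries was not settled. Deviations from the day means of same-numbered libraries correlated from -0.24 to 0.40 over 21 pairs, 8 of them over 0.1. The highest value was between replicate 1 of day 14 and replicate 1 of day 21. Libraries of unlike number were not compared in this way, so these values cannot decide it. With the replicate number as a block, Ccl24 at day 21 was 0.0641, and 4, 4 and 6 of the 8 genes were called at days 7, 14 and 21 in place of 3, 4 and 6, the added call being Mrc1 at day 7 (0.98, edgeR adjusted p = 0.0238). Depth limits Il13ra2, Ccl24, Il13 and Il5, with at most 22 reads of any of them in a library.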
